A study of Homo sapiens with 16 samples.

Results

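Cells labelled siDCAF8+siLSH and given erastin were compared with untreated cells of the same label, which are 4 of the 16 libraries of the series. Their cells are HT-1080, an established human fibrosarcoma line. The libraries were picked by label: 2 libraries of siDCAF8+siLSH with erastin and 2 of siDCAF8+siLSH without it, both given siRNAs against DCAF8 and against LSH, the product of the HELLS gene. Erastin was given at 10 µM for 24 h, per the labels' protocols, whose treatment text stands on untreated libraries too, so the group names decided which were treated. The same comparison within siDCAF8 (4 libraries) and within siNS, the control siRNA (4 libraries), serves as the background against which the response is set. Neither the number of siRNAs per target nor the origin of replicates from separate cultures is given in the sources used here. The p-values thus measure only the spread between replicate libraries, pooled over all 16 libraries, which may be technical.

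Erastin blocks system xc-, the exchanger made of SLC7A11 and SLC3A2 that brings cystine into the cell. Cystine is reduced to cysteine, the limiting part of glutathione, and the peroxidase GPX4 uses glutathione to reduce lipid peroxides. When that supply fails, iron-dependent lipid peroxidation can kill the cell, a death called ferroptosis to which HT-1080 is known to be sensitive. Stressed cells answer through the transcription factors NRF2, which drives antioxidant, glutathione and iron storage genes, and ATF4, which drives amino acid synthesis and import. DCAF8 brings substrates to CRL4 ubiquitin ligases, and LSH is a chromatin remodeler needed for normal DNA methylation.

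In siDCAF8+siLSH cells, erastin raised heme and iron storage genes (HMOX1, FTH1) and enzymes that make cysteine from methionine (CTH, CBS). It also raised GCLM of glutathione synthesis, the thioredoxin reductase gene TXNRD1 and TKT of the pentose phosphate pathway. It lowered mitotic and DNA replication genes, which fell in 35 of 35 and 34 of 39 measured cases, against 9.54% of all tested genes. Mitotic genes also fell in 31 of 35 cases in siDCAF8 and 35 in siNS, and replication genes in 33 and 17 of 39. Of all tested genes, 22.5% fell in siDCAF8 and 22.4% in siNS. Erastin also lowered HELLS itself in siDCAF8+siLSH. Most changes were small: among 2270 called genes the median absolute log2 difference was 0.32. A gene is called at an adjusted p under 0.05 (limma on log2(FPKM + 1), Benjamini-Hochberg over all genes tested), and FPKM is the authors' fragment count scaled to transcript length and library size, so levels are per length.

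Each promoter below carries a short motif known from genes of a group described later, though in most groups fewer than 50% of the windows held it. GCLM and TXNRD1 are shown for the core of the antioxidant response element bound by NRF2, AARS for the response element bound by ATF4 with C/EBP partners, and PRC1, CCNB2 and KIF23 for the cell cycle genes homology region of late cell cycle genes. RFC5 is shown for the E2F site of replication genes. Each window runs from 250 bases before to 50 bases after the gene's start in RefSeq on GRCh38.p14, reads 5′ to 3′ on the gene's strand, and has the motif in capitals.
GCLM, chr1:93909381-93909680, minus strand: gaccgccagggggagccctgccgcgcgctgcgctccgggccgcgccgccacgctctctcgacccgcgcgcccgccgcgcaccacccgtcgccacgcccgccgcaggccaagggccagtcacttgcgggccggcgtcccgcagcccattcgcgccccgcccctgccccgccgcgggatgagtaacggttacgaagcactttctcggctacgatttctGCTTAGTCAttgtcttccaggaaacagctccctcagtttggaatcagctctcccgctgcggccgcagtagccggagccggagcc
TXNRD1, chr12:104215529-104215828, plus strand: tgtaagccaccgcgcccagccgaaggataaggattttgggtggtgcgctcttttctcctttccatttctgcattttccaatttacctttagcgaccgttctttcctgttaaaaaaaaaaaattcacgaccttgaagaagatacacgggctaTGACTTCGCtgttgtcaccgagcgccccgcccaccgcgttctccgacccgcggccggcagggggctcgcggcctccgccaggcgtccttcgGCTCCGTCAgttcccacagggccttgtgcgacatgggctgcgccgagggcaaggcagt
AARS, chr16:70289457-70289756, minus strand: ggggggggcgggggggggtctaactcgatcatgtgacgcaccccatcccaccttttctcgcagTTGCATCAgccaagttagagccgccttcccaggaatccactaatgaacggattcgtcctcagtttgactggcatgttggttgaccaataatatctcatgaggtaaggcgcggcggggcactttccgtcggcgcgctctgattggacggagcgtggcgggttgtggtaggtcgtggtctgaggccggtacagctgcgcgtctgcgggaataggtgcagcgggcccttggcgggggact
PRC1, chr15:90994486-90994785, minus strand: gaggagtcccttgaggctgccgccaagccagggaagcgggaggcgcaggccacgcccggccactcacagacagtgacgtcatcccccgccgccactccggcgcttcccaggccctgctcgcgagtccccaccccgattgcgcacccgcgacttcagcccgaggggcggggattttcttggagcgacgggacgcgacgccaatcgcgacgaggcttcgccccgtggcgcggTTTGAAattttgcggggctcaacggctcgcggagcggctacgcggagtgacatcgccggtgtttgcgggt
CCNB2, chr15:59104896-59105195, plus strand: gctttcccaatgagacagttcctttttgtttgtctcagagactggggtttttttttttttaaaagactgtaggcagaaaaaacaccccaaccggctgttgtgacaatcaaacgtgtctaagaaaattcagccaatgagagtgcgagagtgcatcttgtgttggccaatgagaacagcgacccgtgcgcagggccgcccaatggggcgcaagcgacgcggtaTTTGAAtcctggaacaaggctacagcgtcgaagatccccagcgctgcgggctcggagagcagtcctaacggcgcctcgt
KIF23, chr15:69414099-69414398, plus strand: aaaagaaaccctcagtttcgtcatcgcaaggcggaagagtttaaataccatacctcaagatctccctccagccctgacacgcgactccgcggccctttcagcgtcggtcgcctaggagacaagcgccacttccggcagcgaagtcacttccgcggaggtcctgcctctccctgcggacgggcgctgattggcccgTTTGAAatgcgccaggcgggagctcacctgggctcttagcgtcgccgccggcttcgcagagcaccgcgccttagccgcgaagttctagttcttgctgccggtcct
RFC5, chr12:118016453-118016752, plus strand: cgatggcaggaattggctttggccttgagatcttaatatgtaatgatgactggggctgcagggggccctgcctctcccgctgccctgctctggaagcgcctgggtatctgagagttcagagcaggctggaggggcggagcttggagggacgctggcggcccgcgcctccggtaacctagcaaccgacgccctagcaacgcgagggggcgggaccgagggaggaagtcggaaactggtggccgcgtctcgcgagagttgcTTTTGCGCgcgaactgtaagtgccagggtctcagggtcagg

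Motifs were searched on both strands as TGACNNNGC (antioxidant response element core), TGATGNAA (C/EBP-ATF response element), TTTGAA (cell cycle genes homology region) and TTTNGCGC (E2F site), and a match is a description of these letters only. RefSeq windows were held for 9283 of the 11260 genes tested. TTTGAA stood in 20 of the 29 windows held for the mitosis list (69%), in 9.35% of the windows of all tested genes, in 18% of those of genes that fell and in 7.72% of those of genes that rose. TTTNGCGC stood in 14 of 33 windows of the G1/S and replication list (42.4%), against 3.19% of the windows of tested genes. TGACNNNGC stood in 6 of the 13 windows held for NRF2 targets that were called (46.2%) and in 6 of the 20 held for all tested NRF2 targets (30%), against 15.3% of the windows of tested genes. TGATGNAA stood in 5 of 28 windows of the ATF4 list (17.9%) and in 6 of 16 windows of the tRNA synthetases (37.5%), against 1.66% of the windows of tested genes. Among called members it stood in 2 of 17 windows of the ATF4 list (11.8%) and in 3 of 7 of the tRNA synthetases (42.9%). These lists were drawn up with earlier results of these data known and the shares were not tested, so they describe the lists and not the response.

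The siRNA targets check the labels. DCAF8 had 14.57 and 17.11 FPKM in siDCAF8+siLSH with erastin, against 17.41 and 14.26 FPKM without it, and the values overlapped (log2 0.00, adjusted p = 0.986, limma). In siNS it stood at 36.66 to 40.43 FPKM over 4 libraries, above every siDCAF8+siLSH library. HELLS had 2.12 and 2.36 FPKM with erastin, against 4.05 and 4.07 FPKM without it, a fall of 1.56-fold on the scale of FPKM + 1 (log2 -0.64, SE 0.07, adjusted p = 1.37e-05, limma).

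HELLS RNA in untreated siDCAF8+siLSH cells was not below that of untreated siNS cells (4.05 and 3.98 FPKM), though it was below that of untreated siDCAF8 cells (6.83 and 7.45 FPKM). The RNA thus goes with the label for DCAF8, and for LSH only relative to siDCAF8, so every statement below is about the libraries labelled siDCAF8+siLSH. WDR76, a WD40-repeat protein overexpressed in other libraries of the series, had 5.28 and 5.45 FPKM with erastin, against 7.53 and 7.69 FPKM without it (log2 -0.44, adjusted p = 0.00942). That call was lost without untreated replicate 2 (adjusted p = 0.0598) or without erastin replicate 1 (adjusted p = 0.0567).

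Of 16 mesenchymal markers 14 passed the filter, a mean over all 16 libraries, while THY1 (0.03 to 0.14 FPKM in the 4 libraries) and NT5E (0.22 to 0.32 FPKM) were nearly absent. Cadherin 2 (CDH2) stood at 24.45 and 23.88 FPKM with erastin, against 25.44 and 25.73 FPKM without it, and vimentin (VIM) at 1273 and 1333 FPKM with erastin, against 1647 and 1550 FPKM without it. Of 20 markers of epithelial, blood, vascular, melanocytic, hepatic or neural cells, 17 had values and 8 passed the filter. Their summed level was 93.4 and 94.1 FPKM with erastin, against 99.6 and 90.5 FPKM without it, and that of the mesenchymal markers was 4474 and 4629 FPKM with erastin, against 5383 and 4898 FPKM without it. The part of these levels in the results was not tested. Most of the sum of other-cell markers came from CD68 and the tubulin TUBB3, KRT5 was listed at 0 in all 4 libraries, and EPCAM reached at most 0.13 FPKM. Total FPKM ran from 439799 to 455662 in the 4 libraries. FPKM times bases, over low values of short genes within a range set beforehand, had a median of 60.2 to 61.5. Such a median can also arise at other depths, so it cannot decide whether depth was equal. Measured against each gene's mean over 16 libraries, levels changed with GC content by -0.05 and -0.06 log2 per 10% GC with erastin, against -0.11 and -0.15 without it. GC content and length together held 9.19% of the variance of the response.

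Within these 4 libraries the first principal component held 67.9% of the variance and set the erastin libraries (scores 10.7 and 12.4) apart from the untreated ones (-9.90 and -13.2). The second held 18.7% and separated the untreated pair from each other (9.04 and -7.92) more than the erastin pair (0.93 and -2.05).

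Of 11260 genes tested, 2270 were called (20.2%), with 1196 higher (10.6%) and 1074 lower (9.54%) under erastin. The count leaned on single libraries: it was 1247 without untreated replicate 2, 1281 without erastin replicate 2 and 1423 without erastin replicate 1, and 758 genes (6.73%) were called in the fit and in all 4 fits that leave out 1 library. Only 335 called genes reached a log2 difference of 0.5 in either direction, and 21 (0.187%) reached 2-fold, of which 19 rose (0.169%) and 2 fell (0.0178%). Values of the treated and untreated libraries did not overlap in 57.7% of tested genes. The shares called higher (10.6%) and lower (9.54%) are those to set beside every list count of this response. In RNA from whole cultures, fewer cells of a kind and less RNA per cell cannot be told apart.

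**Figure D1:**
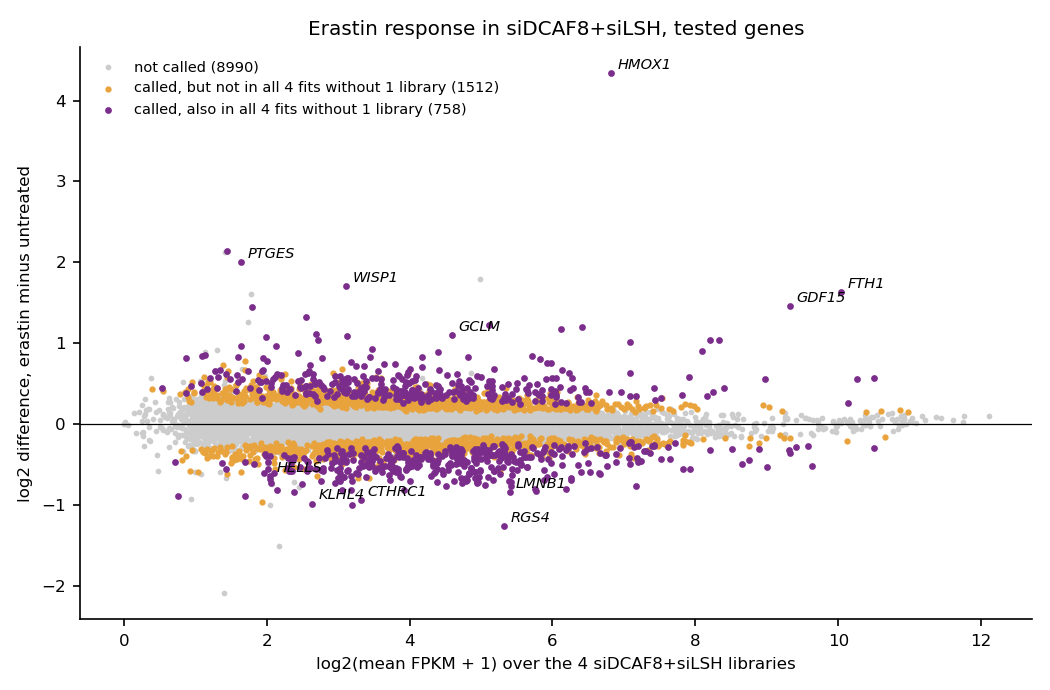
Log2 difference between erastin-treated and untreated siDCAF8+siLSH (y) against mean level over the 4 libraries (x, log2 of FPKM + 1), 1 point per tested gene, coloured by whether it was called and whether the call held in all 4 fits without 1 library. HMOX1 stands alone at 4.34, and most called genes lie within 0.5 of zero.

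The gene that rose most was HMOX1, the inducible heme oxygenase that splits heme into iron, carbon monoxide and biliverdin. It had 190.82 and 239.17 FPKM with erastin, against 7.82 and 11.70 FPKM without it (log2 4.34, SE 0.30, adjusted p = 1.93e-07). Both treated libraries lay far above both untreated ones, and the difference was 4.08 to 4.61 when any 1 of the 4 libraries was left out.

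PTGES, the inducible prostaglandin E synthase, had 4.29 and 3.67 FPKM with erastin, against 0.09 and 0.41 FPKM without it (4.01-fold on the scale of FPKM + 1, adjusted p = 8.76e-07). WISP1, a matricellular CCN protein, had 10.12 and 14.43 FPKM with erastin, against 3.54 and 2.53 FPKM without it (log2 1.71, SE 0.15). GDF15, a stress-induced cytokine, had 969.57 and 912.84 FPKM with erastin, against 361.10 and 322.96 FPKM without it (log2 1.46, SE 0.09). In each of these genes the lower treated library exceeded the higher untreated one by more than the gap between replicates.

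The other large rises by rule were the dopamine receptor gene DRD5 (log2 1.44), LTBP3, which holds latent TGF-beta in the matrix (1.22), and NUPR1, a small stress-induced nuclear protein (1.17). The rule took only genes called in each fit without 1 library and with no overlap between treated and untreated libraries. The hair keratin genes KRT81 (1.20) and KRT86 (1.11) and CBSL, a near copy of CBS (1.32), also passed, but their fragments could be shared with close copies and their values are uncertain. The same holds for GAGE12I, a member of a cluster of near-identical cancer-testis genes, with 2.74 and 4.16 FPKM under erastin, while it was listed at 0 in both untreated libraries.

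Among falls, RGS4, which switches off G protein signalling, went furthest. It had 23.44 and 21.65 FPKM with erastin, against 54.45 and 56.63 FPKM without it (log2 -1.26, SE 0.10, adjusted p = 6.15e-07, limma). KLHL4, a kelch protein, had 3.29 and 3.08 FPKM with erastin, against 6.89 and 7.68 FPKM without it (log2 -0.98), and CTHRC1, a secreted collagen triple helix protein, had 5.55 and 6.17 FPKM against 11.97 and 12.27 FPKM (log2 -0.94).

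The other falls named by rule were the myosin gene MYH15 (-0.89), the neuropeptide gene NMU (-0.89), the lamin gene LMNB1 (-0.84), the matrix glycoprotein tenascin C, TNC (-0.84), RRM2, a subunit of ribonucleotide reductase (-0.83), the G1 cyclin gene CCNE2 (-0.82), the late G1 gene TCF19 (-0.82) and the membrane scaffold gene MPP4 (-0.81). NMU is low throughout, with 0.15 and 0.22 FPKM under erastin and 1.29 and 1.09 FPKM without it. FRG2, from a family of near-identical copies and so uncertain, had 4.28 and 5.90 FPKM with erastin, against 12.40 and 9.92 FPKM without it.

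Iron and heme genes rose in 7 of 23 measured cases and fell in 0, with a median of 0.03 against 0.01 over all tested genes, and 6 of the rises held in every fit without 1 library. FTH1, the ferritin heavy chain that stores iron, had 1506.1 and 1670.5 FPKM with erastin, against 506.43 and 515.74 FPKM without it (log2 1.63, SE 0.10, adjusted p = 5.49e-08). FTL, the ferritin light chain, had 1810.8 and 1654.4 FPKM with erastin, against 1077.5 and 1266.9 FPKM without it (log2 0.57, SE 0.06, adjusted p = 1.53e-05). Ferritin genes have many processed pseudogenes, so their level is uncertain.

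BLVRB, which reduces biliverdin (0.51), SLC48A1, a heme transporter (0.56), and ABCB6, a porphyrin transporter (0.38), rose as well. The transferrin receptor TFRC and the ferritinophagy receptor NCOA4 belong to the 16 members that were not called.

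NRF2 targets, a list that shares HMOX1 and the ferritins with the iron list, rose in 19 of 31 measured cases and fell in 0, with a median of 0.53, and 16 of the rises held in every fit without 1 library. GCLM, the modifier subunit of glutamate-cysteine ligase, had 31.37 and 32.35 FPKM with erastin, against 14.51 and 14.04 FPKM without it (log2 1.11, SE 0.09, adjusted p = 1.28e-06). TXNRD1, the cytosolic thioredoxin reductase, had 180.97 and 179.95 FPKM with erastin, against 81.30 and 96.40 FPKM without it (log2 1.02, SE 0.09). In these genes, whose promoters are printed above, all treated libraries stood about 2-fold above the untreated ones.

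TKT, the transketolase of the pentose phosphate pathway, rose by 0.59, and ME1, the malic enzyme that yields NADPH, by 0.53. Of the NRF2 machinery itself, 4 of 8 members rose and 1 fell (median 0.24): SQSTM1, the autophagy receptor that binds KEAP1, had 391.06 and 399.51 FPKM with erastin, against 179.23 and 204.73 FPKM without it (log2 1.04). MAFF, a small MAF partner of NRF2, rose by 0.50. Its relatives MAFG and MAFK (both 0.36) were called with all libraries, but not without untreated replicate 2 (adjusted p = 0.0654 for MAFG and 0.113 for MAFK), and MAFG also not without erastin replicate 1 (adjusted p = 0.0568).

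Glutathione enzymes rose in 6 of 18 cases and fell in 2 (median 0.15). Besides GCLM, GGT1, which breaks down extracellular glutathione and has close copies (0.32), rose, while the glutathione-degrading CHAC2 had 5.91 and 4.98 FPKM with erastin, against 7.67 and 9.97 FPKM without it (log2 -0.60). GCLC, the catalytic partner of GCLM, had 13.40 and 13.32 FPKM with erastin, against 10.80 and 12.01 FPKM without it (log2 0.21, adjusted p = 0.024), a call lost without untreated replicate 1 (adjusted p = 0.174), erastin replicate 1 (adjusted p = 0.099) or erastin replicate 2 (adjusted p = 0.0922). Whether the subunits differed in response was not tested.

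Peroxide and thiol enzymes rose in 3 of 20 cases and fell in 2 (median -0.02), near the shares of all tested genes (10.6% and 9.54%). PRDX3, the mitochondrial peroxiredoxin, was one that fell (-0.28), a call lost without untreated replicate 2 (adjusted p = 0.112) and without erastin replicate 1 (adjusted p = 0.082). Of 4 members of the list of metallothioneins and zinc export that passed the filter, the metallothioneins MT2A (0.55) and MT1X (0.43) rose and the zinc exporter SLC30A1 and the metal-responsive factor MTF1 were not called. MT2A and MT1X are genes with close copies that leave both uncertain, and MT1X was not called without erastin replicate 2 (adjusted p = 0.133) or untreated replicate 1 (adjusted p = 0.0568).

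Of 19 ferroptosis suppressors, 3 rose and 1 fell (median -0.08), near the shares of all tested genes (10.6% and 9.54%). GPX4 had 140.42 and 139.07 FPKM with erastin, against 108.09 and 103.80 FPKM without it (log2 0.40, SE 0.05). AIFM2 encodes FSP1, which recycles ubiquinone as a lipid antioxidant, and had 8.88 and 7.95 FPKM with erastin, against 5.79 and 6.04 FPKM without it (log2 0.44, adjusted p = 0.000266). Ubiquinone synthesis moved the other way in PDSS1, at 9.02 and 9.19 FPKM with erastin, against 11.58 and 13.62 FPKM without it (log2 -0.42), a call lost when untreated replicate 2 was left out (adjusted p = 0.143) and when erastin replicate 1 (adjusted p = 0.0653) or erastin replicate 2 (adjusted p = 0.0559) was left out.

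Of 18 measured genes that supply or oxidize polyunsaturated lipids, 4 rose and 2 fell (median -0.04), against 10.6% and 9.54% of all tested genes. POR, the cytochrome P450 reductase that can feed lipid peroxidation, had 24.84 and 22.07 FPKM with erastin, against 16.30 and 17.03 FPKM without it (log2 0.47). PLA2G6, a phospholipase that releases oxidized fatty acids, had 2.09 and 2.60 FPKM with erastin, against 1.33 and 1.22 FPKM without it (log2 0.55). CYB5R1 (0.28) and the polyamine enzyme SAT1 (0.35) were called with all libraries. CYB5R1 was not called without untreated replicate 2 (adjusted p = 0.16) or erastin replicate 1 (adjusted p = 0.0825), and SAT1 was not called without untreated replicate 1 (adjusted p = 0.1) or either erastin library (adjusted p = 0.0598 and 0.0993). ACSL4 and LPCAT3, which load such fatty acids into membranes, were among the 12 not called.

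**Figure D2:**
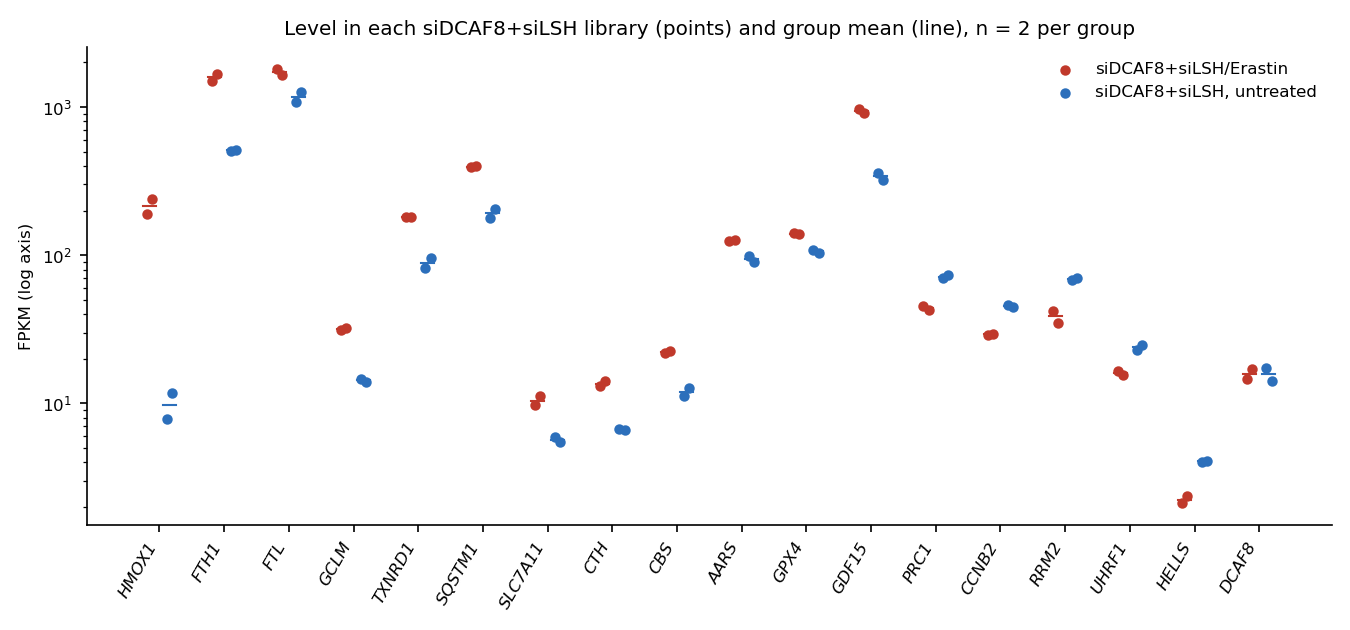
FPKM (log axis) of 18 genes in the 2 erastin-treated (red, left) and 2 untreated (blue, right) siDCAF8+siLSH libraries, with the mean of each group as a line. Treated and untreated libraries do not overlap for any gene shown but DCAF8, and they do not overlap in 57.7% of all tested genes.

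Cysteine supply rose in 5 of 10 measured genes and fell in 0 (median 0.23), with 3 rises left without erastin replicate 2. CTH, the last enzyme of transsulfuration, had 13.00 and 14.19 FPKM with erastin, against 6.71 and 6.57 FPKM without it (log2 0.93, SE 0.11). CBS, the first, had 21.71 and 22.62 FPKM with erastin, against 11.25 and 12.76 FPKM without it (log2 0.84), and shares sequence with CBSL. SLC7A11, the subunit that erastin blocks, had 9.71 and 11.14 FPKM with erastin, against 5.89 and 5.47 FPKM without it (log2 0.77, adjusted p = 0.00288), while its partner SLC3A2 was not called (0.17, adjusted p = 0.0549).

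ATF4 response genes rose in 25 of 37 cases and fell in 0 (median 0.36), but in 13 without erastin replicate 2 and 16 without untreated replicate 2, and 12 rises held in every fit without 1 library. CEBPB, a partner of ATF4, had 61.80 and 70.81 FPKM with erastin, against 38.19 and 34.86 FPKM without it (log2 0.84, SE 0.08, adjusted p = 4.64e-06). PCK2, the mitochondrial PEP carboxykinase, had 64.47 and 78.50 FPKM with erastin, against 42.02 and 38.94 FPKM without it (log2 0.80). CHAC1, a glutathione-degrading enzyme often used as a marker of erastin, had 3.79 and 5.90 FPKM with erastin, against 3.34 and 3.37 FPKM without it, and was not called (0.40, adjusted p = 0.056).

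Of 20 tRNA synthetases, which charge tRNAs with amino acids, 7 rose and 0 fell (median 0.07), with 3 left without erastin replicate 2 and 4 without untreated replicate 1. AARS, for alanine, had 123.69 and 126.70 FPKM with erastin, against 98.74 and 90.50 FPKM without it (log2 0.40), and SARS, for serine, rose by 0.34. WARS, for tryptophan, rose by 0.43.

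Of 24 genes of the unfolded protein response, 2 were called higher and 3 lower (median -0.03), near the shares of all tested genes. XBP1, its splice-activated transcription factor, rose by 0.34 and the chaperone DNAJC3 fell by 0.29, a call lost without erastin replicate 2 (adjusted p = 0.0628). Heat shock genes rose in 4 of 20 cases and fell in 4 (median -0.04). HSPB8 (0.54) and BAG3 (0.35), which work together in chaperone-assisted autophagy, held their rises in every fit without 1 library. Of 32 proteasome genes, 1 rose and 1 fell.

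Autophagy and lysosome genes rose in 13 of 30 cases and fell in 0 (median 0.07), but in 7 without untreated replicate 2 and in 8 without either erastin library. GABARAPL1, an ATG8 protein of autophagosomes, had 12.31 and 13.58 FPKM with erastin, against 6.39 and 7.33 FPKM without it (log2 0.83). NPC1, the lysosomal cholesterol exporter, rose by 0.63 and the protease gene CTSL by 0.42.

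Of 23 p53 targets, 9 rose and 0 fell (median 0.15), with 3 left without untreated replicate 2, 3 without erastin replicate 1 and 5 without erastin replicate 2. PLK3 rose by 0.51 and the cell cycle inhibitor CDKN1A had 164.12 and 156.92 FPKM with erastin, against 128.36 and 123.39 FPKM without it (log2 0.35).

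Mitotic genes fell in 35 of 35 measured cases, with a median of -0.62, and all 35 falls held in every fit without 1 library and when GC content and length were corrected for. PRC1, which bundles the spindle midzone, had 45.31 and 42.87 FPKM with erastin, against 69.71 and 73.75 FPKM without it (log2 -0.69, SE 0.06, adjusted p = 6.42e-07). CCNB2, a mitotic cyclin, had 29.11 and 29.31 FPKM with erastin, against 45.90 and 45.04 FPKM without it (log2 -0.62). The kinesin genes KIF20A and KIF23, both at -0.70, act at cytokinesis.

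The G1/S and replication list fell in 34 of 39 cases and rose in 0 (median -0.43), and 29 falls held in every fit without 1 library. TYMS, which makes thymidylate, had 76.97 and 71.51 FPKM with erastin, against 105.29 and 103.65 FPKM without it (log2 -0.49). FEN1, the flap endonuclease of lagging strand synthesis (-0.60), CCNA2, the S phase cyclin (-0.70), and RFC5, a subunit of the clamp loader (-0.43), fell too.

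HELLS belongs to a list of 11 measured genes of LSH and DNA methylation, of which 4 fell and 0 rose (median -0.12). UHRF1, which brings DNA methylation to replicating DNA, had 16.47 and 15.44 FPKM with erastin, against 23.02 and 24.65 FPKM without it (log2 -0.55, SE 0.06). DNMT1, the maintenance methyltransferase, had 43.17 and 38.84 FPKM with erastin, against 55.20 and 49.43 FPKM without it (log2 -0.34). CDCA7, which activates LSH, was lower by 0.21 with all libraries, a call lost in each of the 4 fits without 1 library (adjusted p = 0.0771 to 0.157). HELLS, UHRF1 and DNMT1 are also genes of replicating cells, and they fell as most of the G1/S list did. Whether these falls are linked was not tested.

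**Figure D3:**
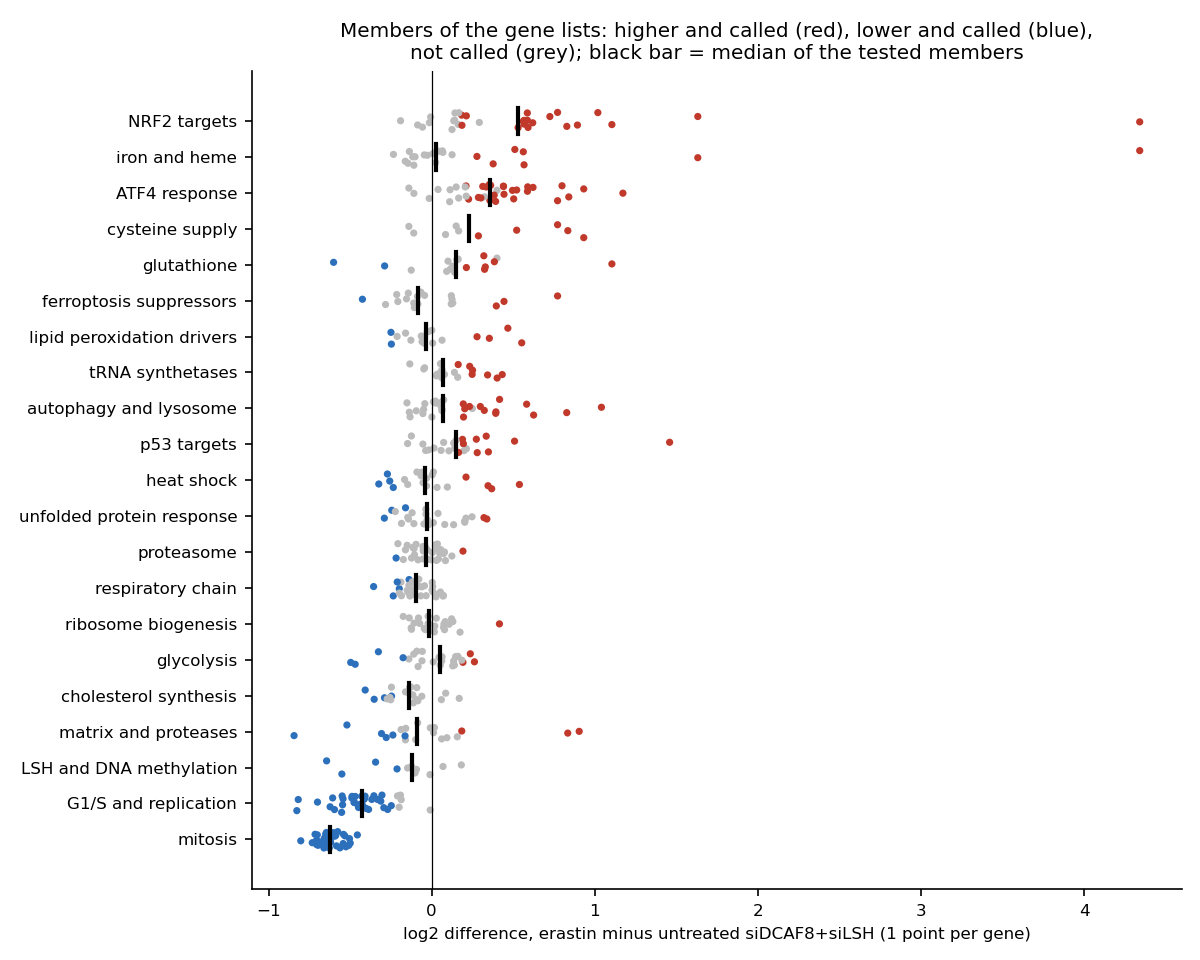
Log2 difference, erastin minus untreated siDCAF8+siLSH, for each tested member of 21 gene lists, red where higher and called, blue where lower and called, grey where not called, with the list's median as a bar. The mitosis members lie around their median of -0.62, while NRF2 targets spread up to HMOX1 at 4.34.

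In metabolism, cholesterol synthesis fell in 5 of 22 cases and rose in 0 (median -0.14). These calls were weak: 0 were left without untreated replicate 2, 2 without either erastin library and 3 without untreated replicate 1. FDPS, which makes farnesyl diphosphate, fell by 0.25, a call lost without untreated replicate 2 (adjusted p = 0.0566).

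The counts in this paragraph stand against 10.6% higher and 9.54% lower over all tested genes. Glycolysis rose in 3 of 24 cases and fell in 4 (median 0.05). LDHA, which makes lactate, had 333.04 and 334.06 FPKM with erastin, against 455.34 and 487.06 FPKM without it (log2 -0.50), and PGAM1 fell by 0.33. Respiratory chain genes fell in 5 of 35 cases and rose in 0 (median -0.10), with 1 fall left without untreated replicate 2 and 10 without untreated replicate 1. NDUFV2, a complex I subunit, held its fall (-0.36) in each fit. Of 13 fatty acid synthesis genes, 2 rose and 0 fell, and of 25 ribosome biogenesis genes 1 rose, RRP12 (0.42).

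Among 18 hypoxia genes, 5 rose and 1 fell (median 0.07), with 1 rise left without untreated replicate 2 and 2 without erastin replicate 2. NDRG1, a stress-responsive gene, rose by 0.67, and STC1, a secreted glycoprotein, had 52.23 and 52.11 FPKM with erastin, against 96.54 and 87.29 FPKM without it (log2 -0.80).

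Of 20 YAP targets, 5 rose and 1 fell (median 0.04), with 2 rises left without erastin replicate 1 and 3 without untreated replicate 2. ANKRD1 had 437.14 and 425.51 FPKM with erastin, against 184.28 and 236.86 FPKM without it (log2 1.04). PLAT, the tissue plasminogen activator, of the matrix and protease list, rose too (0.83).

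Of 20 matrix and protease genes, PLAT and TNC among them, 6 fell and 3 rose (median -0.09), with 3 falls left without untreated replicate 1 or without erastin replicate 2. LAMB1, a laminin chain, fell by 0.52. Among mesenchymal markers VIM (-0.29) and the galectin LGALS1 (-0.32) fell and the transcription factor SNAI2 rose (0.44).

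The next counts, too, stand against 10.6% higher and 9.54% lower over all tested genes. Of 21 RAS-MAPK and immediate early genes, 4 rose and 0 fell (median 0.03), among them KLF2 (0.55) and the phosphatase gene DUSP5 (0.57). Of 17 cytokine and NF-κB genes, 4 rose and 1 fell (median 0.14), among them LIF, an IL-6 family cytokine (0.61). Of 30 interferon genes, 6 rose and 2 fell (median 0.00), with 3 rises left without untreated replicate 2 or without erastin replicate 2. STAT2 (0.43), MX1 (0.37) and ISG15 (0.47) held in each fit.

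Of the 10 listed CRL4 genes and targets, HELLS and WDR76 were called and the other 8, among them the adaptor DDB1, were not.

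Setting the response beside that of siDCAF8 cells, which share the DCAF8 siRNA, tests whether responses differ between cells with and without the LSH siRNA, and the responses share no library. The difference was called for 2642 genes (23.5%), 1602 higher (14.2%) and 1040 lower (9.24%) in siDCAF8+siLSH. This count fell to 359 genes (3.2%) after correction for GC content and length, and to 1008 without siDCAF8 replicate 1, 1201 without untreated siDCAF8+siLSH replicate 2, 1470 without its erastin replicate 1 and 1624 without siDCAF8/Erastin replicate 2. The split was 1330 higher and 1332 lower with median-ratio scaling and 1385 and 1387 with quantile normalization, so the excess of higher responses depends on scaling. DCAF8 was also less depleted in siDCAF8+siLSH (14.26 to 17.41 FPKM) than in siDCAF8 (10.34 to 12.23 FPKM), and the levels of DCAF8 and the LSH siRNA cannot be told apart here.

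HMOX1 rose by 4.34 in siDCAF8+siLSH and by 1.90 in siDCAF8, where it had 59.95 and 27.84 FPKM with erastin, against 10.40 and 10.13 FPKM without it. The difference of 2.45 (SE 0.42, adjusted p = 0.00242) was 2.24 after GC and length correction (adjusted p = 0.02). FTH1 differed by 0.67 (adjusted p = 0.00481), 0.64 after correction (adjusted p = 0.0232). GDF15 differed by 0.69, and was not called after correction (0.43, adjusted p = 0.0589). CEBPB rose by 0.84 in siDCAF8+siLSH and was not called in siDCAF8 (-0.09), a difference of 0.93 that held after correction (0.65, adjusted p = 0.00762).

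Of the genes with the highest differences, FPR1, NRSN1, ZNF485 and CA9 were lowered by erastin in siDCAF8. FPR1, a formyl peptide receptor, had 24.93 and 28.42 FPKM with erastin, against 21.92 and 24.28 FPKM without it, in siDCAF8+siLSH (not called), and 7.55 and 6.19 FPKM, against 17.14 and 19.58 FPKM, in siDCAF8 (log2 -1.30). Its difference was 1.50 (SE 0.13, adjusted p = 2.52e-05). NRSN1, a neuronal vesicle protein (difference 2.04), and the zinc finger gene ZNF485 (1.66) rose in siDCAF8+siLSH (0.64 and 0.58) and fell in siDCAF8 (-1.40 and -1.07). CA9, a carbonic anhydrase induced by hypoxia, was not called in siDCAF8+siLSH (0.04) and fell in siDCAF8 (-1.29), at levels of 0.15 to 1.95 FPKM, and its difference was 1.33. GAGE12I was also among the highest and SCHIP1, which overlaps a longer readthrough gene, among the lowest, and both are uncertain.

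At the low end, UAP1, which makes UDP-N-acetylglucosamine, had 79.98 and 77.87 FPKM with erastin, against 90.17 and 99.88 FPKM without it, in siDCAF8+siLSH, and 158.09 and 184.89 FPKM, against 111.82 and 117.66 FPKM, in siDCAF8 (difference -0.83). The other lowest differences by rule were in the MYB family gene MYBL1 (-0.85), the ribosomal protein paralog RPL22L1 (-0.83, uncertain because of close copies), the small GTPase gene RND3 (-0.81) and the phosphatase subunit gene PPP2R3C (-0.76). The choice took only genes called in every fit without 1 of the 8 libraries. These genes, HMOX1 included and the uncertain GAGE12I and SCHIP1 left aside, also kept their call after GC and length correction.

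Among lists, NRF2 targets had 9 higher and 1 lower difference of 31 (median 0.18, against 0.04 over all genes), and 5 higher after GC and length correction. Erastin raised 17 of the 31 and lowered 3 in siDCAF8, and raised 19 and lowered 2 in siNS (median 0.35). Against siNS, this list had 3 higher and 3 lower differences (median 0.03), where all tested genes had 15.6% and 9.13%. Glycolysis, against siDCAF8, had 11 higher and 0 lower of 24 (median 0.23), and 6 after correction. Erastin lowered 16 of the 24 genes in siDCAF8, where 22.5% of all tested genes fell, and 4 in siDCAF8+siLSH, where 9.54% fell. PKM, the last kinase of the pathway, had 942.91 and 926.75 FPKM with erastin, against 1048.3 and 945.53 FPKM without it, in siDCAF8+siLSH, and 908.42 and 888.63 FPKM, against 1316.8 and 1271 FPKM, in siDCAF8 (difference 0.43). PGAM1 differed by 0.41, and PFKL, a phosphofructokinase, by 0.59, a call lost after correction (0.32, adjusted p = 0.0749). The mitosis list had 2 higher and 6 lower differences of 35, and 0 of either after correction. HELLS differed by -0.40, but not after correction (-0.13, adjusted p = 0.464), nor without siDCAF8 replicate 1 (adjusted p = 0.0613) or siDCAF8+siLSH/Erastin replicate 1 (adjusted p = 0.0511).

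Against siNS, the control siRNA, the response differed for 2790 genes (24.8%), 1762 higher (15.6%) and 1028 lower (9.13%) in siDCAF8+siLSH, and for 2696 (24%) after GC and length correction. Without siNS replicate 2 the count was 1761. The split was 1425 higher and 1352 lower with median-ratio scaling and 1417 and 1465 with quantile normalization, so here too the excess of higher responses depends on scaling.

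The ATF4 list showed 34 higher differences and 1 lower of 37 (median 0.89, against 0.04 over all genes), and 31 to 34 higher in every alternative run. Erastin lowered 28 of the 37 genes and raised 1 in siNS, while it raised 25 and lowered 0 in siDCAF8+siLSH. In siDCAF8 it raised 16 and lowered 2, where 18.3% of all tested genes rose and 22.5% fell. The list's difference from siDCAF8 was higher in 7 and lower in 2 (median 0.16), against 14.2% and 9.24% of all tested genes. After GC and length correction that difference was higher in 1 and lower in 2. CHAC1 had 3.71 and 5.41 FPKM with erastin, against 33.82 and 37.87 FPKM without it, in siNS, and the untreated siNS libraries stood above all 4 siDCAF8+siLSH libraries (3.34 to 5.90 FPKM). Its difference was 3.14 (SE 0.20, adjusted p = 2.52e-07).

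INHBE, an activin chain, had 15.74 and 20.40 FPKM with erastin, against 11.90 and 10.73 FPKM without it, in siDCAF8+siLSH, and 9.48 and 10.16 FPKM, against 41.46 and 47.41 FPKM, in siNS (difference 2.69). DDIT4, an inhibitor of mTORC1, had 43.59 and 66.90 FPKM with erastin, against 45.51 and 40.55 FPKM without it, in siDCAF8+siLSH (not called), and 47.26 and 54.62 FPKM, against 206.55 and 207.45 FPKM, in siNS (difference 2.33). For these genes the untreated siNS libraries were again the highest of the 8.

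SLC7A11 had like untreated levels in both backgrounds. SLC7A11 had 2.02 and 2.69 FPKM with erastin, against 5.86 and 5.43 FPKM without it, in siNS, where the untreated level was like that of siDCAF8+siLSH (5.89 and 5.47 FPKM), and its difference was 1.76 (SE 0.23, adjusted p = 8.25e-05). CTH had 3.84 and 4.19 FPKM with erastin, against 9.30 and 8.36 FPKM without it, in siNS (difference 1.90). The neutral amino acid carrier SLC1A4 (2.09), SLC3A2 (1.03) and AARS (1.30) differed the same way. Cysteine supply had 8 higher and 0 lower differences of 10 (median 1.02), and the tRNA synthetases 8 higher and 0 lower of 20 (median 0.21). In siDCAF8 erastin raised 4 and lowered 0 of the cysteine supply genes, and raised 12 and lowered 2 of the tRNA synthetases. Against siDCAF8, cysteine supply had 0 higher and 0 lower differences. The tRNA synthetases had 1 higher and 7 lower (median -0.08), and 0 of either after GC and length correction.

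**Figure D4:**
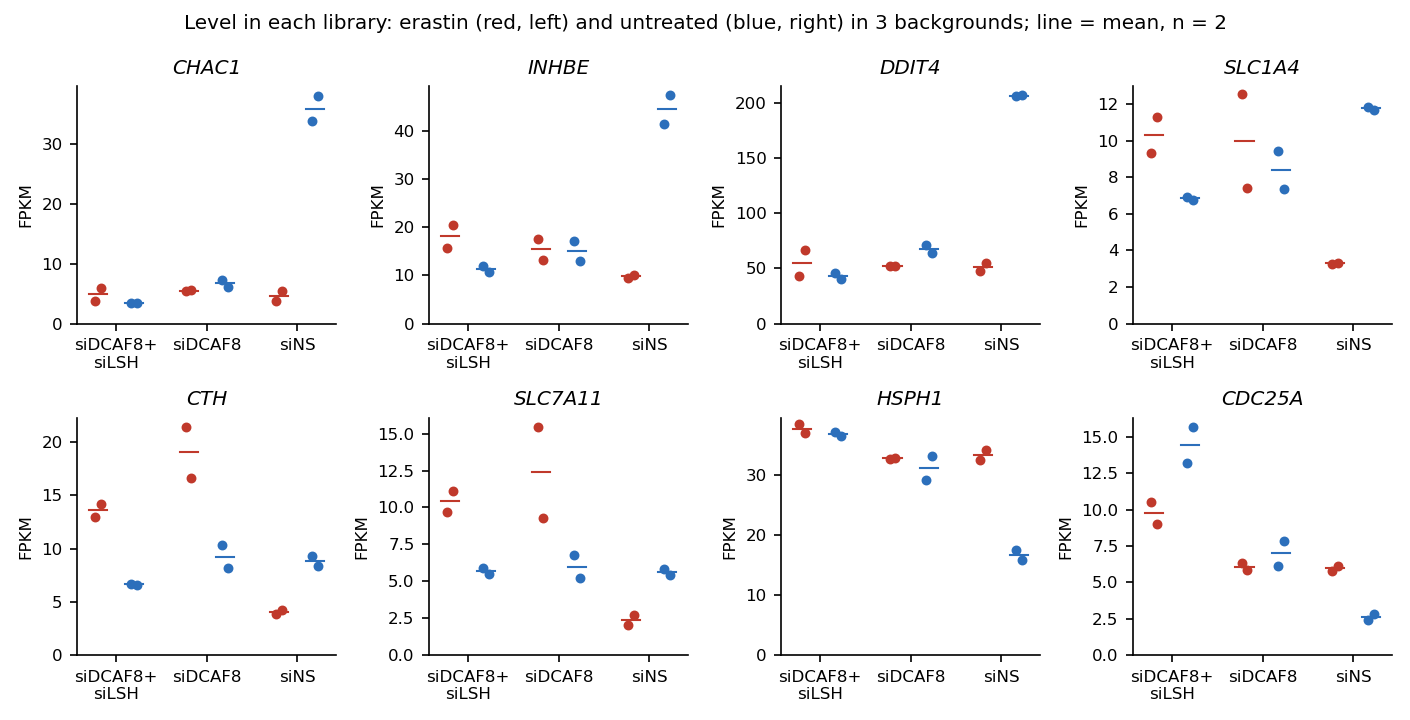
FPKM of 8 genes in each library of siDCAF8+siLSH, siDCAF8 and siNS, with erastin (red, left) and without it (blue, right), and the group mean as a line. CHAC1, INHBE and DDIT4 are highest in untreated siNS, while SLC7A11 has untreated levels of 5.22 to 6.78 FPKM in the 3 backgrounds and is below them with erastin in siNS.

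The heat shock list had 0 higher and 18 lower differences of 20 (median -0.51). Erastin raised 18 of 20 in siNS (median 0.36), against 4 raised and 4 lowered in siDCAF8+siLSH (median -0.04). HSPH1, a co-chaperone of HSP70, had 38.39 and 36.97 FPKM with erastin, against 37.07 and 36.52 FPKM without it, in siDCAF8+siLSH, and 32.45 and 34.15 FPKM, against 17.46 and 15.89 FPKM, in siNS (difference -0.92, SE 0.09). The untreated siDCAF8+siLSH level thus already exceeded the treated siNS level. CHORDC1, an HSP90 partner, differed by -0.72.

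Cholesterol synthesis had 0 higher and 10 lower differences of 22 (median -0.36), with 5 left without siNS replicate 2. HMGCS1, its early enzyme, had 29.39 and 30.76 FPKM with erastin, against 39.31 and 41.13 FPKM without it, in siDCAF8+siLSH, and 110.33 and 99.02 FPKM, against 58.46 and 54.36 FPKM, in siNS (difference -1.29). The G1/S list had 0 higher and 15 lower of 39 (median -0.25). CDC25A, the phosphatase that starts S phase, had 10.52 and 9.04 FPKM with erastin, against 13.17 and 15.67 FPKM without it, in siDCAF8+siLSH, and 5.81 and 6.12 FPKM, against 2.43 and 2.82 FPKM, in siNS (difference -1.46).

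The other extremes by rule were DRD5 (2.79) and the complement receptor gene C5AR1 (2.12) at the top, and RGS4 (-1.42), the chemokine gene CCL3 (-1.37, with close copies), the kinase gene SGK3 (-1.24, adjusted p = 0.0505 and so not called when all genes were kept) and CCNE2 (-1.14) at the bottom. HELLS differed by -0.48 (adjusted p = 0.00286): erastin left it uncalled in siNS (3.60 and 3.37 FPKM with erastin, against 4.05 and 3.98 FPKM without it).

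**Figure D5:**
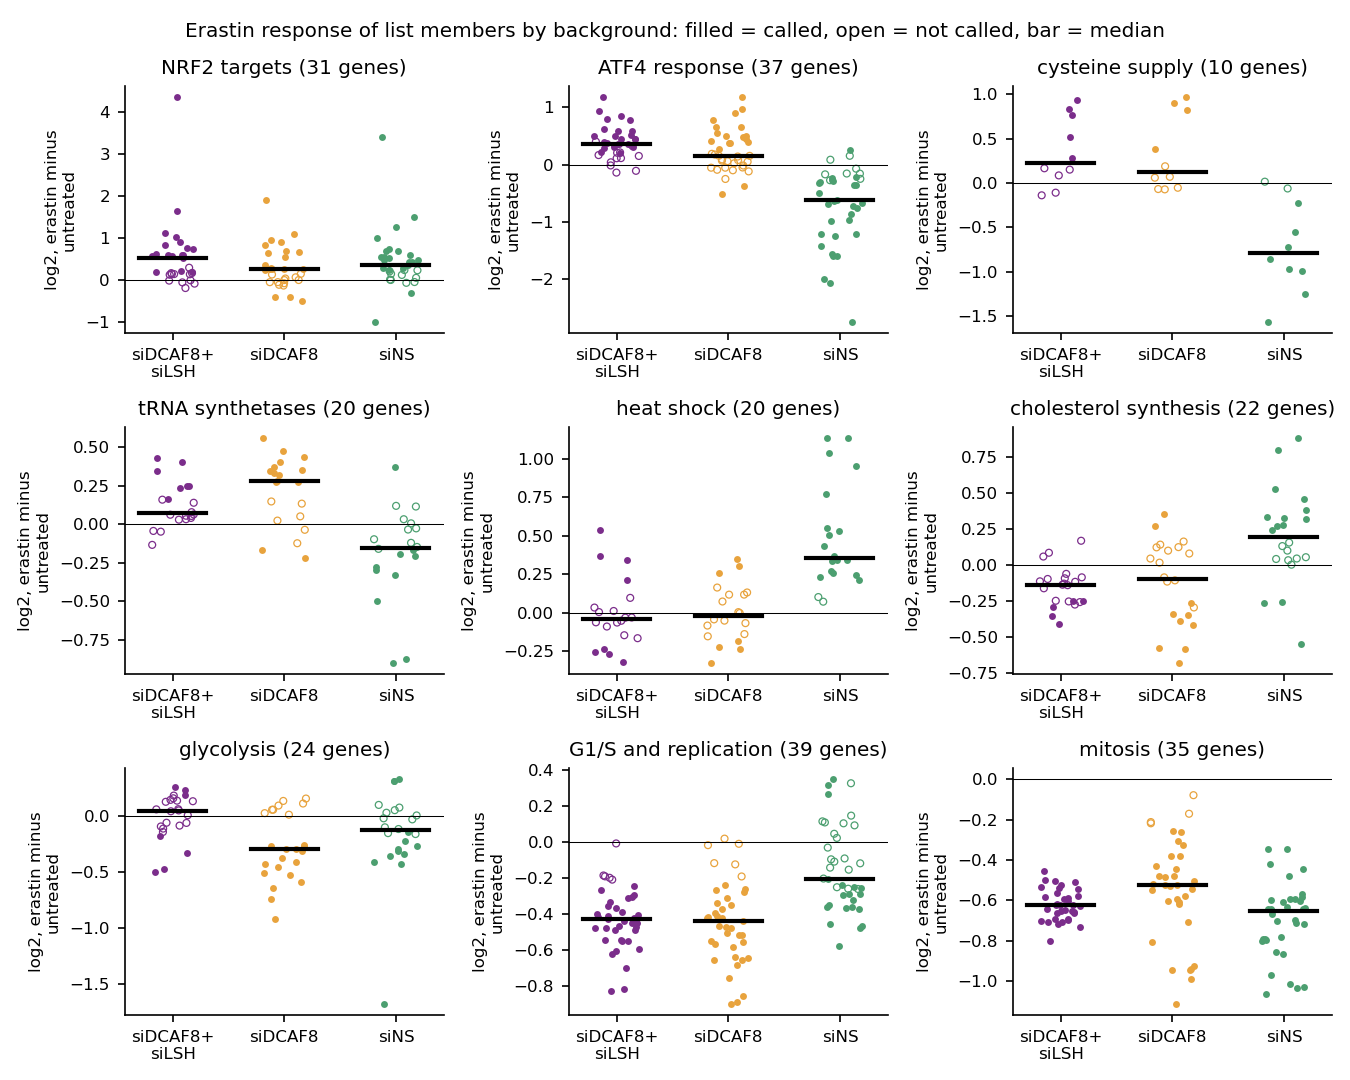
Log2 difference, erastin minus untreated, of each tested member of 9 gene lists in siDCAF8+siLSH, siDCAF8 and siNS, filled where called and open where not, with the median as a bar. Most ATF4 members lie above zero in siDCAF8+siLSH and below it in siNS, 18 of 20 heat shock members rose in siNS, against 4 in siDCAF8+siLSH and 3 in siDCAF8, and mitosis members lie below zero in all 3.

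Of all tested genes, 18.3% rose and 22.5% fell in siDCAF8, and 15.1% rose and 22.4% fell in siNS, and the overlaps are read against these shares. Of the 1196 genes that rose in siDCAF8+siLSH, 372 also rose in siDCAF8 (31.1% of the rises here and 18% of those in siDCAF8) and 293 in siNS (24.5% and 17.2%). Of the 1074 that fell, 614 also fell in siDCAF8 (57.2% and 24.2%) and 531 in siNS (49.4% and 21.1%). In the opposite direction, 83 genes that rose here fell in siDCAF8 and 251 fell in siNS, the second near the share of all tested genes that fell there. Of those that fell here, 43 rose in siDCAF8 and 80 in siNS. Erastin changed 40.9% of tested genes in siDCAF8 and 37.5% in siNS. Across the 11260 genes, Pearson's r of the response was 0.41 with siDCAF8 and 0.23 with siNS, given as a description, since genes are not independent replicates.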

How the data were processed

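RNA of 16 libraries in 8 groups of 2 was sequenced on BGISEQ500, per the labels' protocols. FPKM values per gene, rounded to 2 decimals, were deposited by the authors. The submitters' processing notes name StringTie and the build GRCh38. For the aligner, the annotation and all versions: not given in the sources used here. Of 24107 entries, 17552 had values. Depth is unknown. The level of 1 fragment was sought only within a range set beforehand, so counting error of low genes cannot be compared between libraries.

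Genes averaging 1 FPKM or more across 16 libraries (11260) were tested on log2(FPKM + 1) with limma 3.58.1 in R 4.3.3. The model had 8 group means, trended variance, 8 residual and 8.57 prior degrees of freedom. Benjamini-Hochberg adjustment was made within each of 3 contrasts. It was also made within each of the siDCAF8 and siNS responses, which are given as background. Folds on the scale of FPKM + 1 understate changes of low genes. The compared responses share no library. The members and lists were chosen with earlier results of these data known. Named genes are the 12 largest rises and 12 largest falls called in every fit without 1 library and without overlap. The siRNA targets, WDR76 and up to 4 called members of lowest p per list were added. For each difference they are the 6 highest and 6 lowest called in every fit without 1 library involved, and up to 3 per list. GCLC, TFRC, NCOA4, ACSL4, LPCAT3, DDB1, ABCB6, SLC48A1, CDH2, THY1, NT5E, KRT5, EPCAM, SLC30A1, MTF1 and RFC5 were named outside that rule, after their values were seen. The same holds for SSX4, SSX4B, CTAG1A and CTAG1B. Alternatives were the pseudocount, filters, scaling, GC content and length, a replicate block, the groups in the fit and leaving out each library. On simulated data for the response, 87.35% of 200 genes moved by 0.5 on the log2 scale were recovered among 11260, and 98.65% of those moved by 1. Of the genes called there, 4.3% and 5.81% had not been moved. Noise was drawn separately for each gene, so shifts shared by the genes of a library were not simulated. Python 3.11.15, pandas 2.3.3, numpy 2.4.6 and matplotlib 3.10.9 were used. Some members of the lists are counted but not reported here by name.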

Additional observations from a re-analysis of the deposited data

Results flagged for a closer look

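The erastin response of the libraries labelled siDCAF8+siLSH differed from that of siDCAF8 in 2642 genes, by the test of the difference itself (limma, adjusted p under 0.05), and in 359 genes after GC content and length correction. Named among them for a higher response in siDCAF8+siLSH, as differences of log2 responses, were HMOX1 (2.45), NRSN1 (2.04), ZNF485 (1.66), FPR1 (1.50), CA9 (1.33), CEBPB (0.93), GDF15 (0.69), FTH1 (0.67), PFKL (0.59), PKM (0.43) and PGAM1 (0.41). A lower response was found for MYBL1 (-0.85), UAP1 (-0.83), RPL22L1 (-0.83), RND3 (-0.81), PPP2R3C (-0.76) and HELLS (-0.40). After that correction GDF15 (adjusted p = 0.0589), PFKL (adjusted p = 0.0749) and HELLS (adjusted p = 0.464) were not called.

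The response differed from that of siNS in 2790 genes by the same test. A higher response in siDCAF8+siLSH was found for CHAC1 (3.14), DRD5 (2.79), INHBE (2.69), DDIT4 (2.33), C5AR1 (2.12), SLC1A4 (2.09), CTH (1.90), SLC7A11 (1.76), AARS (1.30) and SLC3A2 (1.03). A lower one was found for CDC25A (-1.46), RGS4 (-1.42), CCL3 (-1.37), HMGCS1 (-1.29), SGK3 (-1.24), CCNE2 (-1.14), HSPH1 (-0.92), CHORDC1 (-0.72) and HELLS (-0.48). With no filter on low values SGK3 was not called (adjusted p = 0.0505).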

How the results depend on the processing

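Of all 2270 calls, 758 held in every fit without 1 library. Among 129 genes named for the response, many of them chosen for holding in those fits, 1551 of 1662 alternative values kept direction and side of the threshold, 106 lost the call and 5 turned sign, all 5 for DCAF8, which was not called (0.00 with all libraries, -0.0066 with median-ratio scaling, -0.0131 with quantile normalization, -0.00681 with GC content and length correction, and -0.13 to 0.14 without 1 library). Of 286 values for 17 genes of the difference from siDCAF8, 5 lost the call, and of 319 for 19 genes of the difference from siNS, 1 did. Leaving out 1 library gave 1247 to 2098 genes called for the response, 1008 to 3003 for the difference from siDCAF8 and 1761 to 2732 for that from siNS. The difference from siDCAF8 also moved to 1755 genes with no filter, 1696 with only the compared groups in the fit and 359 after GC content and length correction. The cause was not tested. Many genes named for the differences were also chosen for holding without 1 library, so their few lost calls follow partly from that choice. Replicate numbers were not taken as pairing the libraries: deviations of same-numbered libraries correlated at 0.04 between treated and untreated siDCAF8+siLSH and at -0.21 to 0.39 over all pairs of groups, the highest between untreated siDCAF8+siLSH and untreated siDCAF8. A replicate block gave 2295, 2707 and 2824 calls for the 3 contrasts. With only the compared groups in the fit, the response had 1607 calls. With 2 libraries a group and unknown depth, small differences and low genes are the least certain.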

Other observations

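Some near-identical gene copies were listed at 0 in some libraries and not in others, and how fragments were divided between copies was not tested. SSX4 was listed at 0 in both erastin libraries, against 3.68 and 2.88 FPKM in untreated siDCAF8+siLSH, while its copy SSX4B had 3.41 and 3.32 FPKM with erastin and was listed at 0 in both untreated libraries. CTAG1B, another cancer-testis gene with a close copy, had 42.96 and 16.34 FPKM with erastin, against 0.00 and 62.91 FPKM without it, and its copy CTAG1A had 169.48 and 218.70 FPKM with erastin, against 203.81 and 147.33 FPKM without it. Below the filter on mean level, 70 genes reached at least 1 FPKM in both erastin libraries.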
